A study of Homo sapiens with 12 samples.

Results

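The genes described here handle acid and base in U87MG cells, a human glioblastoma line. They are the carbonic anhydrase genes CA9, CA12, CA13 and CA2, the bicarbonate transporter genes SLC4A2 and SLC4A7, the monocarboxylate transporter genes SLC16A1 and SLC16A3, and BSG, which encodes basigin. Members were found by gene symbol in the names of 55598 assembled loci, and all 9 were present, each in 1 locus. Of these, 8 passed a mean of at least 1 FPKM (fragments per kilobase of transcript, scaled to library size) over 12 libraries and were compared with 12190 other loci, while CA2 did not. The cells were kept for 24 hours in hypoxia (1% oxygen) with acidosis (pH 6.0), in hypoxia at pH 7.4, in normoxia with acidosis (pH 6.0), or in normoxia at pH 7.4, all from cultures in serum-containing DMEM. The sources used here give no oxygen percentage for normoxia. The lysates were separated by ribosome density into a monosome, an oligosome and a polysome fraction, and 1 library was sequenced per condition and fraction, from 1 cell line. There are no replicates, so no test was run, no p-value is given, and differences between conditions lack a replicate check.

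Carbonic anhydrases interconvert carbon dioxide and bicarbonate with release or uptake of a proton. CA9 and CA12 encode membrane enzymes whose catalytic domain faces outward, and CA2 and CA13 encode cytosolic enzymes. SLC4A2 encodes AE2, which exchanges chloride for bicarbonate, and SLC4A7 encodes NBCn1, which brings in sodium with bicarbonate. SLC16A1 (MCT1) and SLC16A3 (MCT4) carry lactate together with a proton, and basigin is the partner protein that both need to reach the plasma membrane. In glioblastoma and other solid tumors CA9 is used as a marker of hypoxia, and CA9 and SLC16A3 are known targets of hypoxia-inducible factors (HIFs), which bind DNA at the core letters ACGTG or GCGTG.

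The sequences just upstream of the transcript starts are shown for the 3 members that were called higher in hypoxia, because HIF sites are known in this part of the CA9 gene. They are the 250 bases before a RefSeq transcript start (GRCh38.p14), written 5′ to 3′ on the strand of the gene, with ACGTG on either strand in capitals. The gene coordinates given further below are from another annotation, GENCODE, whose genes start further upstream. By those coordinates the CA12 and SLC16A3 windows lie inside the gene. The CA9 window runs into the gene, and its match falls in the part inside. For SLC16A3 the start with the most copies is shown, of 5 listed, and the other SLC16A3 starts held no ACGTG.
CA9, chr9:35673678-35673927, plus strand: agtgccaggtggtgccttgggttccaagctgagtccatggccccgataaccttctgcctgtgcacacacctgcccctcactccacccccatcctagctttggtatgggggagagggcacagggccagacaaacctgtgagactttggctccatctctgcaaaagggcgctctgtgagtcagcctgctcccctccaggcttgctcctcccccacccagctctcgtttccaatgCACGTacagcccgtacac
CA12, chr15:63381847-63382096, minus strand: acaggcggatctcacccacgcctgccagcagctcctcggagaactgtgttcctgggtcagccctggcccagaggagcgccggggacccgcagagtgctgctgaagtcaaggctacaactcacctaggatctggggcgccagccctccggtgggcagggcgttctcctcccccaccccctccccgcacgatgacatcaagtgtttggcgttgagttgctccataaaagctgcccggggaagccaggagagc
SLC16A3, chr17:82228792-82229041, plus strand: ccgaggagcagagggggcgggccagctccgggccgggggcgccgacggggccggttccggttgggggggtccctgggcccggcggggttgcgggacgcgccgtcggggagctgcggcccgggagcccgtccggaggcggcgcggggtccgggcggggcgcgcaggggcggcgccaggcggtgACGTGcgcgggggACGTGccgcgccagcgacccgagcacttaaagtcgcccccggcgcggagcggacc
The CA9 window held 1 match, 18 to 14 bases before the start and on the opposite strand, so that it reads CACGT here. The SLC16A3 window held 2 matches on the strand of the gene, 68 to 64 and 55 to 51 bases before the start. The CA12 window held no ACGTG and 1 GCGTG. Of 35116 windows of this length in the table, 18.5% held ACGTG and 32.2% held GCGTG, on either strand. The table had entries for 6 members with 15 starts in all, of which 5 held ACGTG. Members that were not called higher in hypoxia held it too: 1 of 2 BSG starts had 2 matches, and 2 of 4 SLC4A2 starts, whose windows overlap, had 4 and 6, counting CACGTG once on each strand.

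Facts of the whole series that bear on these values are as follows. Summed FPKM ran from 372405 to 2164040 per library, and the 100 most abundant loci held between 30.6% and 71.2% of it, most in the 4 monosome libraries. Where few fragments were present, FPKM moved in steps, and the step sizes put the depth of the libraries between 0.626 and 2.53 times that of the normoxia monosome library. The 4 monosome libraries were the shallowest, at most 1 on that scale. Among genes that mark this kind of cell, vimentin (VIM) averaged 5979 FPKM and the CD44 locus 658 FPKM, while NES averaged 0.79 FPKM and S100B and the locus with SOX2 less. CDKN2A, which is known to be deleted in U87MG, was listed at 0 in all 12 libraries. VIM and the CD44 locus were themselves called higher in mRNA with hypoxia and with acidosis. Markers of other cell types were 12 genes, of which CD68 lies in a locus with 4 other names and is left out here. The other 11 summed to 3.59 to 33.6 FPKM in the libraries of hypoxia with acidosis, 9.13 to 11.1 FPKM in those of hypoxia, 3.26 to 5.55 FPKM in those of normoxia with acidosis and 7.11 to 8.68 FPKM in those of normoxia. HBB and AIF1 were at 0 in all 12 libraries, and only SNAP25 (4.50), KRT18 (2.56) and EPCAM (1.26) averaged 1 FPKM or more. In these bulk lysates fewer cells with an mRNA and less of it per cell cannot be told apart.

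Levels are FPKM, which are per transcript length. The aggregate level is the mean FPKM over fractions, each weighted by the authors' factor for its RNA concentration. Steady-state mRNA is the log2 of that level plus 1. None of the 12 libraries is of total RNA or of another fraction, so levels and shares cover the sequenced fractions only. Translation efficiency (TE) is the log2 of the TE ratio, in which polysome FPKM is divided by monosome FPKM after 1 is added to each. Both understate changes of low loci. A change is the log2 difference between a pair of conditions after subtraction of its median over the 12198 compared loci. That median was largest, at 0.15 for mRNA, with acidosis in hypoxia, and 0.11 with hypoxia at pH 6.0. Hypoxia was measured in 2 pairs without a shared library (at pH 7.4 and at pH 6.0), and acidosis likewise (in normoxia and in hypoxia). A locus was called when mRNA passed 2-fold in both pairs in the same direction in each fraction, or when TE passed 1.5-fold in both pairs. The hypoxia and acidosis pairs reuse the same 12 libraries.

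Hypoxia came with higher mRNA of both membrane carbonic anhydrases and of the SLC16A3 locus. These 3 of 8 members were called higher and none lower, where 2.16% of all compared loci were called higher and 0.91% lower. By the mean change of the pairs CA9 stood 18th from the top among 12198 loci (log2 2.71 or 6.57-fold), CA12 32nd (log2 2.37, 5.16-fold) and the SLC16A3 locus 49th (log2 2.21, 4.63-fold). In the same 3 genes, and in no other member, both hypoxia libraries lay above both normoxia libraries in each fraction, which held for 6.78% of all compared loci. None lay below in this way, which 4.85% did. At pH 7.4 alone the same 3 of 8 passed 2-fold higher (5.29% of all loci) and 0 lower (2.8%), and at pH 6.0 alone 3 higher (6.29%) and 0 lower (7.45%). The median log2 change of the 8 members was 0.83 at pH 7.4 and 0.53 at pH 6.0, against 0 over all loci by construction.

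**Figure D1:**
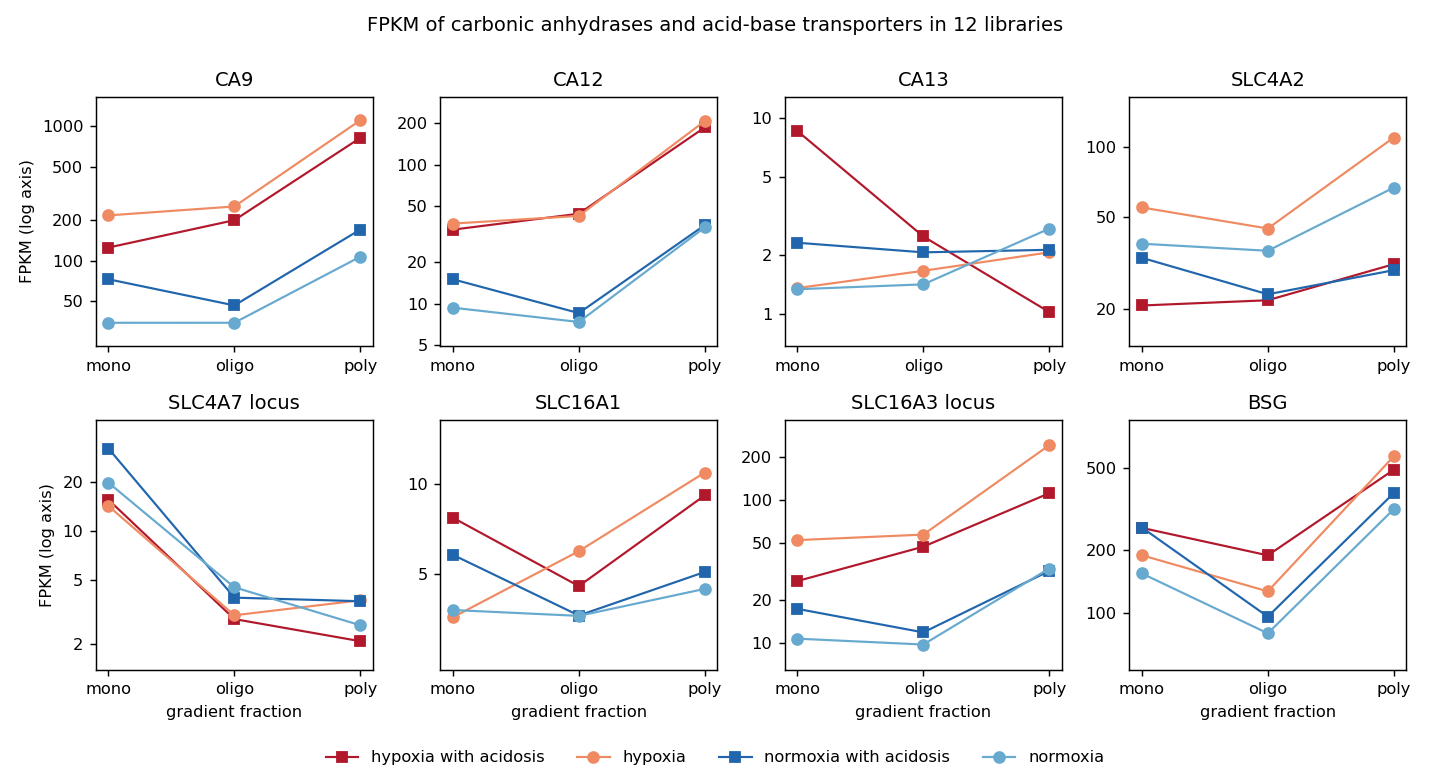
FPKM of 8 members (log axes with a scale of their own) in the monosome, oligosome and polysome library of each condition, 1 library per point. CA9, CA12 and the SLC16A3 locus lie higher in both hypoxia conditions in each fraction, while CA13 peaks at 8.60 FPKM in the monosomes of hypoxia with acidosis.

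CA9 (carbonic anhydrase IX; GRCh38 chromosome 9, 35673856 to 35681159, plus strand) was the most abundant carbonic anhydrase in every library. In the monosome, oligosome and polysome libraries at pH 7.4, CA9 had 217, 253 and 1108 FPKM in hypoxia, against 34.5, 34.5 and 107 FPKM in normoxia. At pH 6.0 it had 125, 200.1 and 819 FPKM in hypoxia with acidosis, against 72.7, 46.5 and 170.4 FPKM in normoxia with acidosis. Each hypoxia library was thus above the normoxia library of its fraction and pH, by a ratio of 6.30 to 10.4 at pH 7.4 and of 1.72 to 4.81 at pH 6.0. The log2 mRNA change was 3.24 at pH 7.4 and 2.19 at pH 6.0, a difference of -1.05 between the pairs that has no test. In the polysome library CA9 ranked 41st among compared loci in hypoxia and 64th in hypoxia with acidosis, against 351st in normoxia with acidosis and 654th in normoxia. With acidosis the CA9 mRNA change was 0.62 in normoxia and -0.44 in hypoxia, short of 2-fold in both. The annotation places ARHGEF39 on the opposite strand over 2011 bases of CA9. Whether the strand was used in counting is not given in the sources used here, so reads from this stretch cannot be told apart.

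CA12 (carbonic anhydrase XII; chromosome 15, 63321378 to 63382161, minus strand) had a similar pattern at a lower level. At pH 7.4 it had 37.6, 42.7 and 206 FPKM in the monosome, oligosome and polysome libraries of hypoxia, against 9.33, 7.36 and 35.3 FPKM in normoxia. At pH 6.0 the values were 34.03, 44.3 and 185 FPKM in hypoxia with acidosis, against 14.9, 8.53 and 36.6 FPKM in normoxia with acidosis. Hypoxia and normoxia libraries did not overlap within any fraction. Unlike for CA9, the changes at the 2 pH values were close in size (log2 2.46 at pH 7.4 and 2.28 at pH 6.0), and those with acidosis were near 0 (0.07 in normoxia and -0.12 in hypoxia). Whether this differs from CA9 was not tested. The aggregate level of CA9 was 4.39 times that of CA12 in hypoxia with acidosis, 5.47 times in hypoxia, 4.79 times in normoxia with acidosis and 3.26 times in normoxia. CA9 made up 81.1%, 84.4%, 81.3% and 74.9% of the summed aggregate FPKM of the 4 carbonic anhydrases in these conditions, in the same order.

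**Figure D2:**
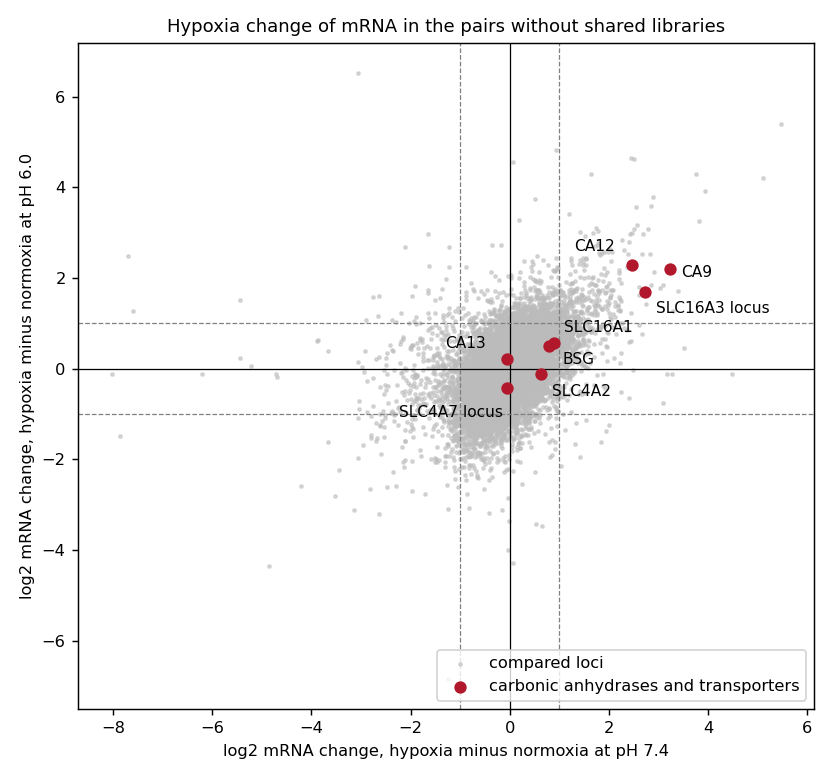
Log2 mRNA change with hypoxia at pH 7.4 (horizontal) and at pH 6.0 (vertical) for all 12198 compared loci (grey) and the 8 compared members (red), with dashed lines at 2-fold. CA9, CA12 and the SLC16A3 locus lie past 2-fold in both pairs, and the other 5 lie within it.

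The cytosolic enzymes were scarce. CA2 (chromosome 8, 85463852 to 85481493, plus strand) was listed at 0 in 7 of 12 libraries, including all 3 of normoxia. Its nonzero values were 0.133 and 0.0427 FPKM in the monosome and polysome libraries of hypoxia with acidosis, 0.0352 and 0.0362 FPKM in the oligosome and polysome libraries of hypoxia, and 0.278 FPKM in the polysomes of normoxia with acidosis. Multiplied by relative depth, the first 4 lay between 0.0830 and 0.0837 and so were alike once depth is taken into account, and the last was 0.703. No change could be read for CA2 at this depth.

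CA13 (chromosome 8, 85220587 to 85284073, plus strand) had between 1.02 and 8.60 FPKM, with a median of 2.06. Its aggregate level was 2.92 FPKM in hypoxia with acidosis, 1.80 FPKM in hypoxia, 2.12 FPKM in normoxia with acidosis and 2.07 FPKM in normoxia, and no mRNA change passed 2-fold. Its place in the gradient did differ. The monosome, oligosome and polysome libraries held 8.60, 2.49 and 1.02 FPKM in hypoxia with acidosis, against 1.35, 1.66 and 2.06 FPKM in hypoxia. In normoxia with acidosis they held 2.31, 2.06 and 2.13 FPKM, against 1.34, 1.41 and 2.73 FPKM in normoxia. The monosome value of hypoxia with acidosis is the highest of the 12, and the polysome value of that condition the lowest. That monosome library was the shallowest (0.626) and the one with the highest summed FPKM. It also held the most KRT18, an epithelial keratin, at 25.1 FPKM, against at most 2.16 FPKM in the other 11 libraries. The part of these in the CA13 result was not tested. Antisense genes lie opposite CA13 over 23272 and 3554 bases (AC011773.3 and AC011773.2).

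The bicarbonate transporter gene SLC4A2 had less mRNA with acidosis. SLC4A2 (chromosome 7, 151057210 to 151076527, plus strand) had 33.3, 23.2 and 29.4 FPKM in the monosome, oligosome and polysome libraries of normoxia with acidosis, against 38.3, 35.7 and 66.7 FPKM in normoxia. In hypoxia with acidosis it had 20.8, 21.9 and 31.2 FPKM, against 54.8, 44.5 and 109 FPKM in hypoxia. Both acidosis libraries lay below both pH 7.4 libraries in each fraction, which held for 1 of 8 members and for 3.01% of all compared loci. None lay above in this way, which 4.3% did. The log2 mRNA change was -0.88 in normoxia (0.544-fold), short of 2-fold, and -1.63 in hypoxia (0.322-fold), so SLC4A2 was not called. By the mean of the pairs (-1.26) it stood 82nd from the lowest of 12198 loci. No member was called in mRNA in either direction with acidosis, where 1.22% of all compared loci were called higher and 0.238% lower. In normoxia alone 0 of 8 members passed 2-fold with acidosis in either direction (3.52% of all loci higher and 1.3% lower). With hypoxia the SLC4A2 changes were 0.63 at pH 7.4 and -0.12 at pH 6.0. CDK5 overlaps SLC4A2 by 1321 bases on the opposite strand.

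The SLC4A7 locus (SLC4A7 on chromosome 3, 27372721 to 27484420, minus strand) also names RN7SL859P, a pseudogene of the 7SL RNA of the signal recognition particle, and the file gives 1 value for both. It had 15.6, 2.87 and 2.10 FPKM in the monosome, oligosome and polysome libraries of hypoxia with acidosis, against 32.2, 3.89 and 3.69 FPKM in normoxia with acidosis. In hypoxia it had 14.2, 3.03 and 3.74 FPKM, against 19.8, 4.50 and 2.63 FPKM in normoxia. The monosome library was the highest in each condition, which held for no other transporter. For SLC4A2 and SLC16A1 the monosome library was the highest in normoxia with acidosis only. The 9 loci that name only RN7SL pseudogenes and average at least 1 FPKM were also higher in the monosome than in the polysome library, 9 of 9 in each condition. Their median ratio of monosome to polysome FPKM, with 1 added to both, was 4.02 in hypoxia with acidosis, 5.07 in hypoxia, 7.87 in normoxia with acidosis and 4.81 in normoxia, against 5.35, 3.21, 7.06 and 5.74 for the SLC4A7 locus. How much of the value of that locus comes from each gene cannot be told apart, and no mRNA change of it passed 2-fold.

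Among the lactate transporters the SLC16A3 locus was higher in hypoxia, and SLC16A1 was low throughout. The SLC16A3 locus (SLC16A3 on chromosome 17, 82228397 to 82261129, plus strand) also names AC132872.2 and CSNK1D, a casein kinase gene that lies opposite SLC16A3 over 22107 bases, so the value is that of the locus. At pH 7.4 it had 52.4, 57.3 and 240.5 FPKM in the monosome, oligosome and polysome libraries of hypoxia, against 10.8, 9.81 and 33.2 FPKM in normoxia. At pH 6.0 it had 27.2, 47.2 and 111 FPKM in hypoxia with acidosis, against 17.4, 11.9 and 31.9 FPKM in normoxia with acidosis. Hypoxia was the higher condition in every fraction at either pH, with log2 mRNA changes of 2.72 at pH 7.4 and 1.70 at pH 6.0. With acidosis the change was 0.03 in normoxia and -1.001 in hypoxia. The oligosome change was -0.41, smaller than in the other fractions. The mRNA value in hypoxia sat at the 2-fold line and missed it without centring, where it was -0.85. In the pair in hypoxia alone, the mRNA of the SLC16A3 locus and of SLC4A2 was past 2-fold lower with each fraction below 0, in 2 of 8 members, where 6.3% of all compared loci were. None was past 2-fold higher, where 5.69% were.

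SLC16A1 (chromosome 1, 112911847 to 112957013, minus strand) had 3.58, 5.96 and 10.9 FPKM in the monosome, oligosome and polysome libraries of hypoxia, against 3.79, 3.62 and 4.46 FPKM in normoxia. At pH 6.0 it had 7.71, 4.55 and 9.16 FPKM in hypoxia with acidosis, against 5.79, 3.63 and 5.08 FPKM in normoxia with acidosis. The polysome libraries of hypoxia were the higher ones, and the monosome libraries differed more by pH than by oxygen. The log2 mRNA change with hypoxia was 0.88 at pH 7.4 and 0.56 at pH 6.0, both short of 2-fold. The aggregate FPKM of the SLC16A3 locus was 10.1 times that of SLC16A1 in hypoxia with acidosis, 18.1 times in hypoxia, 4.84 times in normoxia with acidosis and 5.38 times in normoxia. SLC16A1-AS1 shares 599 bases with SLC16A1 on the opposite strand.

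BSG (chromosome 19, 571277 to 583493, plus strand) was the most abundant transporter gene or partner in every library. It had 189, 127 and 568 FPKM in the monosome, oligosome and polysome libraries of hypoxia, against 154, 79.4 and 316 FPKM in normoxia. At pH 6.0 it had 257, 189 and 489 FPKM in hypoxia with acidosis, against 257, 95.6 and 377 FPKM in normoxia with acidosis. The monosome libraries at pH 6.0 were thus level while the oligosome and polysome libraries were higher in hypoxia. Changes of BSG mRNA with hypoxia were 0.78 at pH 7.4 and 0.50 at pH 6.0, and with acidosis 0.25 in normoxia and -0.05 in hypoxia, none past 2-fold. The aggregate level of BSG was 4.28 times the sum of SLC16A1 and the SLC16A3 locus in hypoxia with acidosis, 2.29 times in hypoxia, 9.25 times in normoxia with acidosis and 8.11 times in normoxia.

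**Figure D3:**
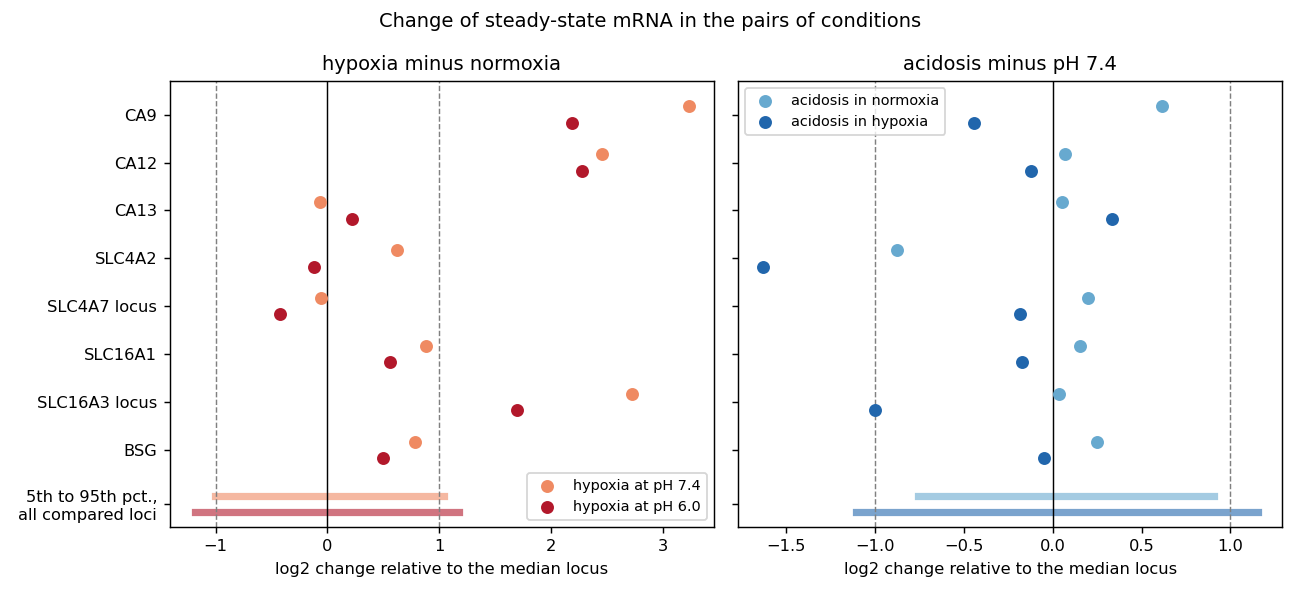
Log2 change of steady-state mRNA relative to the median locus for 8 members with hypoxia (left) and with acidosis (right), 1 point per pair of conditions, with dashed lines at 2-fold and bars for the 5th to 95th percentile of all compared loci. CA9, CA12 and the SLC16A3 locus lie past 2-fold in both hypoxia pairs, and SLC4A2 is the lowest with acidosis in both pairs (-0.88 and -1.63).

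Set against normoxia, hypoxia with acidosis gave 3 of 8 members called higher in mRNA, again CA9 (log2 2.80), CA12 (2.33) and the SLC16A3 locus (1.72), where 11.9% of all compared loci were called higher in this single comparison. SLC4A2 was called lower (-1.01), where 12.5% of all loci were. It fell short of 2-fold without centring (-0.92). This comparison shares its libraries with the pairs above and adds no independent measurement.

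Within the gradient, CA9, CA12, SLC4A2, SLC16A1, the SLC16A3 locus and BSG lay mostly in the polysome fraction in all 4 conditions. Weighted by the RNA concentration factor of each fraction, the polysome share of CA9 was 86.4% in hypoxia with acidosis, 80.4% in hypoxia, 74.8% in normoxia with acidosis and 76.3% in normoxia. For CA12 the polysome share was 85.7%, 81.8%, 77.1% and 82.2% in these conditions. The median over all compared loci was 57.05%, 48.6%, 47.3% and 52.3% in the same order. CA9 and CA12 thus lay above the median locus in each condition. CA13 had the widest range, with 19.7% of its RNA-weighted signal in the polysome fraction in hypoxia with acidosis, 54.2% in hypoxia, 47.4% in normoxia with acidosis and 67.04% in normoxia.

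**Figure D4:**
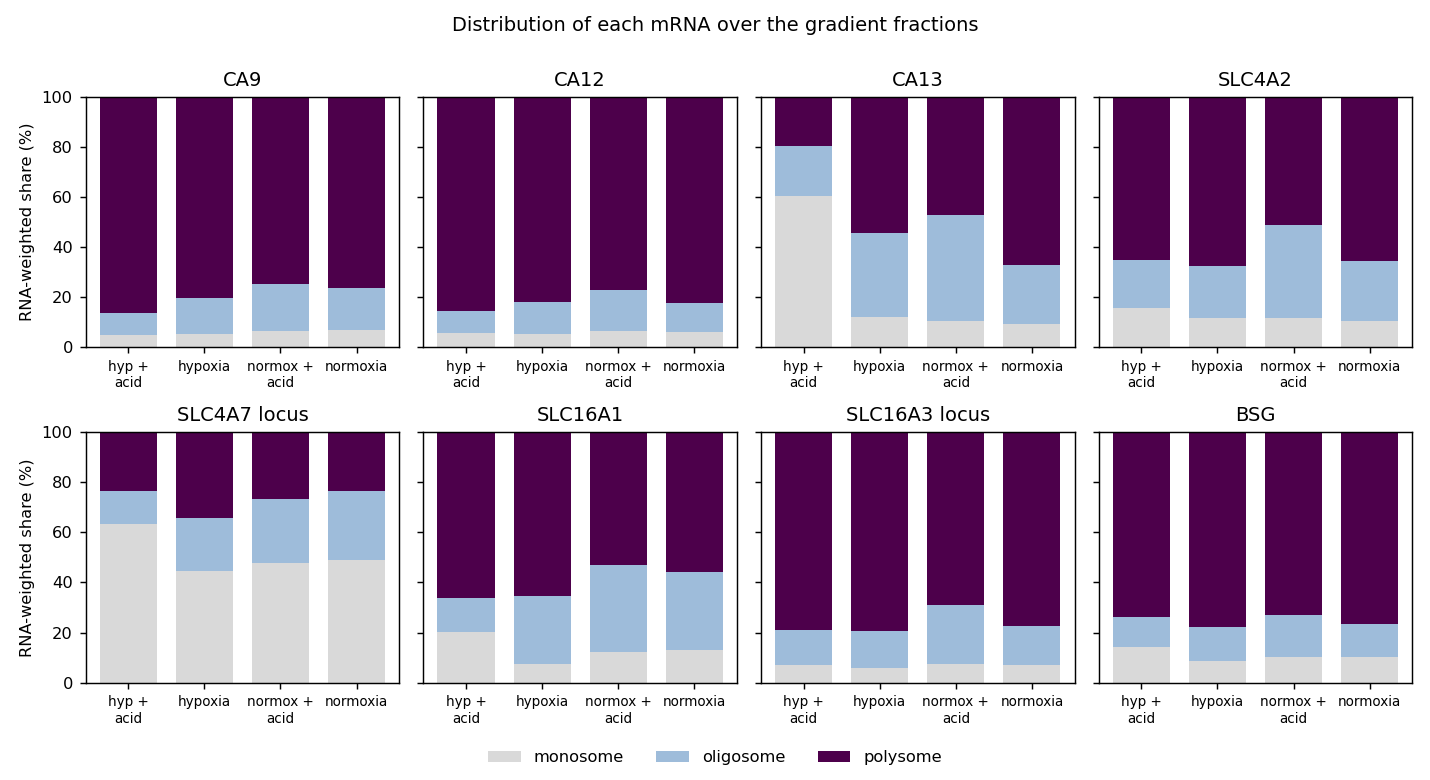
RNA-weighted share (percent) of each mRNA in the monosome, oligosome and polysome fraction, by condition, 1 library per fraction and condition. The polysome part of CA13 is 19.7% in hypoxia with acidosis and at least 47.4% in the other conditions, and the SLC4A7 locus has a monosome part of 44.5% to 63.3%.

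With hypoxia, the same 3 members that were called in mRNA were also called higher in TE, and none was called lower, where 8.77% of all compared loci were called higher and 10.1% lower. The TE ratio of CA9 was 5.08 in hypoxia, against 3.04 in normoxia, and 6.50 in hypoxia with acidosis, against 2.32 in normoxia with acidosis. The log2 TE changes were 0.83 at pH 7.4 and 1.52 at pH 6.0 for CA9, 0.70 and 1.204 for CA12, and 0.73 and 1.19 for the SLC16A3 locus. The calls depend on how TE is formed. With the RNA scaling of the authors, without centring, 0 of 8 members were called higher (3.66% of all loci) and CA13 was called lower (27.1% of all loci), and the CA9 changes were 0.44 and 0.66. With polysome over the other fractions together 0 of 8 were called higher as well (4.53% of all loci). With polysome over oligosome 0 of 8 were called higher (3.45% of all loci), and the CA9 changes were 0.55 at pH 7.4 and 0.13 at pH 6.0. At pH 7.4 alone 6 of 8 members passed 1.5-fold upward in TE (19.5% of all loci), and at pH 6.0 alone 4 of 8 (27.3% of all loci). Downward, 0 of 8 passed at pH 7.4 (21.4% of all loci) and CA13 (-2.13) passed at pH 6.0 (29% of all loci). The upward counts were 2 at pH 7.4 and 1 at pH 6.0 with the RNA scaling of the authors, 1 and 0 with polysome over oligosome, and 3 and 0 with polysome over the other fractions together. BSG (0.65) and SLC16A1 (1.29) passed at pH 7.4 and were at 0.41 and 0.42 at pH 6.0. The SLC4A7 locus passed at pH 7.4 too (0.93) and was at 0.43 at pH 6.0, but its value cannot be split from that of RN7SL859P.

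With acidosis, CA13 was the 1 member of 8 called lower in TE and none was called higher, where 6.67% of all compared loci were called lower and 5.73% higher. The TE ratio of CA13 was 0.944 in normoxia with acidosis, against 1.59 in normoxia, and 0.211 in hypoxia with acidosis, against 1.30 in hypoxia. The log2 TE change was -0.71 in normoxia and -2.62 in hypoxia, and with polysome over oligosome the normoxia value was -0.54, short of 1.5-fold. All 8 members lay below 0 in TE with acidosis in normoxia (median -0.48, against 0 over all loci), and 3 of them passed 1.5-fold (16.8% of all loci), namely CA13, SLC4A2 (-0.91) and the SLC16A3 locus (-0.65). With the RNA scaling of the authors 5 of 8 lay below 0 and CA13 alone passed 1.5-fold lower. With polysome over oligosome, or over the other fractions together, 4 of 8 lay below 0 and 0 passed it lower. In hypoxia 6 of 8 lay below 0 and 4 passed 1.5-fold lower (28.3% of all loci). They were CA13, SLC16A1 (-1.15), BSG (-0.64) and the SLC4A7 locus (-0.72), which shares its value with RN7SL859P. No member passed 1.5-fold higher in normoxia (15.5% of all loci) or in hypoxia (27% of all loci). CA9 was at -0.34 in normoxia and 0.37 in hypoxia. Set against normoxia, hypoxia with acidosis had CA9 (1.15) and CA12 (0.65) called higher in TE (27.8% of all loci) and CA13 (-2.87) called lower (29.8% of all loci).

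**Figure D5:**
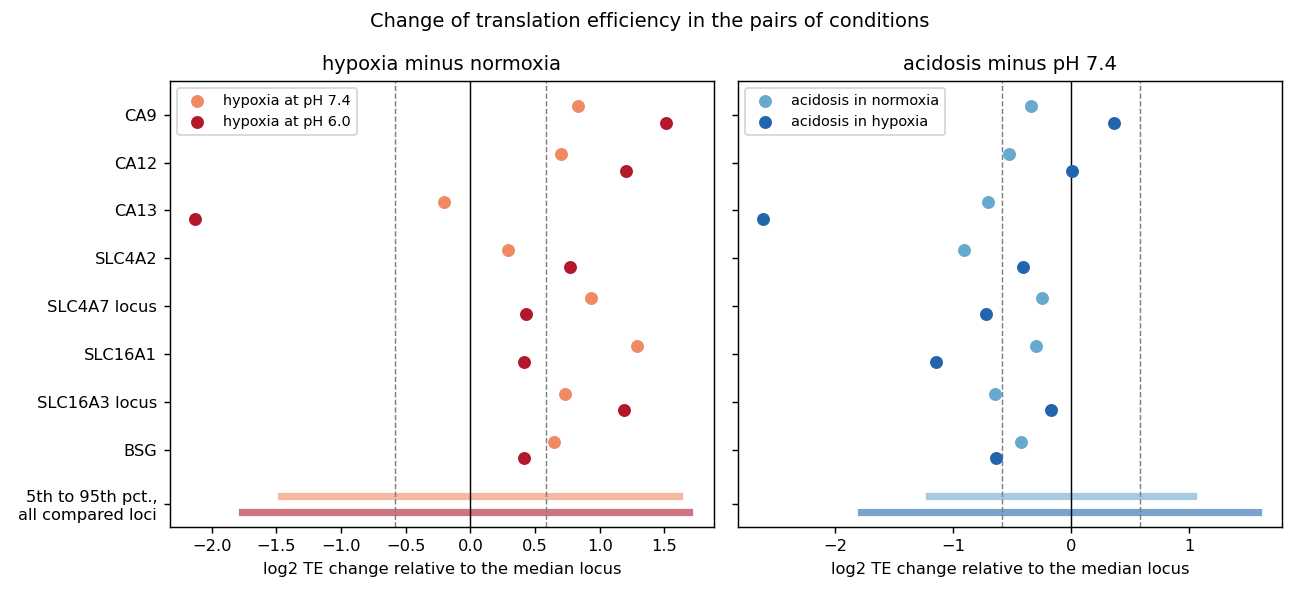
Log2 change of translation efficiency (polysome over monosome) relative to the median locus for 8 members with hypoxia (left) and with acidosis (right), 1 point per pair of conditions, with dashed lines at 1.5-fold and bars for the 5th to 95th percentile of all compared loci. CA9, CA12 and the SLC16A3 locus lie past 1.5-fold in both hypoxia pairs, and CA13 is lowest with acidosis in hypoxia (-2.62).

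Across the 12 libraries, the profiles of CA9, CA12 and the SLC16A3 locus were alike. Pearson's r of log2(FPKM + 1), centred per library, was 0.98 between CA9 and CA12, 0.99 between CA9 and the SLC16A3 locus, and 0.97 between CA12 and that locus. CA9 had r of 0.80 with SLC16A1, 0.75 with BSG, 0.41 with SLC4A2, -0.10 with CA13 and -0.44 with the SLC4A7 locus. These libraries share conditions, fractions and depth, so r is a description. Of 8165 other loci that name 1 gene, those most like CA9 were CA12, STEAP3 (0.98), SNX33 (0.97), PFKL (0.96) and IGFBP5 (0.96). Those most like the other members were CA9 and NAGK for CA12, CA9 and CA12 for the SLC16A3 locus, HSD3B7 and ABHD4 for BSG (0.98 and 0.96), and BCAR1 and SLAMF7 for SLC4A2 (0.96 and 0.93). For the rest they were SSR3 and GTPBP8 for CA13 (0.95 and 0.94), CPT1C and RANBP10 for the SLC4A7 locus (0.97 and 0.96), and RAET1G and PAQR8 for SLC16A1 (0.91 and 0.90).

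Other genes of acid and base handling were compared by list. Of 11 further carbonic anhydrases 2 were compared, CA11 and the locus that holds CA5B with CA5BP1 (mean 12.7 and 11.3 FPKM). None was called in mRNA. CA11, which encodes a protein related to carbonic anhydrases, was called lower in TE with acidosis (-1.202 in normoxia and -0.91 in hypoxia). Of 13 other bicarbonate and anion exchangers 3 were compared and none was called in mRNA. In TE with hypoxia the locus that holds SLC4A5 with DCTN1 was called higher, SLC4A8 was called lower, and SLC26A6, a chloride and bicarbonate exchanger (mean 5.27 FPKM), was not called. Of 13 sodium-proton exchangers and their regulators 6 were compared, with none called in mRNA. CHP1, which encodes a calcineurin B-like protein, was called lower in TE with acidosis (-1.30 and -1.16) and with hypoxia (-0.91 at pH 7.4 and -0.79 at pH 6.0), and the SLC9A3R1 and SLC9A7 loci were not called.

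Of 13 other monocarboxylate transporter genes and embigin, 3 were compared and none was called in mRNA. SLC16A7 (MCT2) was called lower in TE with acidosis (-1.11 and -1.77) at a mean of 1.54 FPKM, and SLC16A13 was not called. EMB, which encodes embigin, a relative of basigin, was listed at 0 in all 12 libraries. Of 10 proton sensors 4 were compared and none was called, the locus that holds GPR4 with OPA3 (mean 3.65 FPKM) among them. Lactate dehydrogenases were the list with mRNA calls, 2 of 3 compared called higher with hypoxia (2.16% of all compared loci). The LDHA locus, whose enzyme makes lactate from pyruvate, had log2 mRNA changes of 1.505 and 1.59 in the pairs at pH 7.4 and 6.0. LDHD, a D-lactate dehydrogenase, had 1.78 and 3.05. It was also called higher in TE with hypoxia (1.23 and 2.12), where 8.77% of all loci were. LDHB was called lower in TE with hypoxia (10.1% of all loci) and with acidosis (6.67% of all loci). Of 5 genes that mark hypoxia, NDRG1, VEGFA, SLC2A1 and ADM were called higher in mRNA with hypoxia and PDK1 was not (0.96 at pH 7.4 and 0.74 at pH 6.0). NDRG1 (1.26 and 1.97) and SLC2A1 (0.97 and 1.54) were also called higher in TE with hypoxia, where 8.77% of all compared loci were. VEGFA, ADM and PDK1 were not called in TE with hypoxia. The joint calls of CA9, CA12 and the SLC16A3 locus were thus shared by NDRG1 and SLC2A1.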

How the data were processed

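RNA of 3 gradient fractions in 4 conditions was sequenced from U87MG cells, 12 libraries in all. Per the labels' protocols the library kit keeps strand. Tools named in the submitters' processing notes, with no role stated, are STAR 2.5.0, Cufflinks 2.2.1, Cuffnorm and bcl2fastq, with the build GRCh38. For the annotation, the normalization method and the use of strand, nothing is given in the sources used here. FPKM per assembled locus is the unit the authors deposited. Per the file headers they also deposited a signal, the FPKM times 1 factor per library for RNA concentration. The 12 factors were recovered as the ratio of these columns (equal on every nonzero line, tolerance 1e-06) and used as weights. FPKM was not counts, so no count test was run.

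Small RNA loci (4769) and loci under a mean of 1 FPKM were left out, which left 12198. A pseudocount of 1 was used. The calls are fixed folds. Scripts in Python 3.11.15 with numpy 2.4.6 and pandas 2.3.3 were tested on simulated data. Relative depth was read from loci present in at most 4 libraries. Coordinates are from GENCODE 29 and promoters from RefSeq. The members and lists were chosen with earlier results of these data known. All 9 members are named, with other acid-base genes that were called or had the 2 highest means of the remaining genes in their list, and the 5 (CA9) or 2 most similar loci. Some genes that this rule names are not reported here. The 13 alternatives tried are given in the closing section.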

Additional observations from a re-analysis of the deposited data

Results flagged for a closer look

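With acidosis, CA9 mRNA was higher in each fraction in normoxia and lower in each fraction in hypoxia, relative to the median locus. The log2 changes were 0.62 in normoxia and -0.44 in hypoxia, and the difference was not tested. CA12 showed the same signs at a smaller size, 0.066 in normoxia and -0.12 in hypoxia. Of 12198 compared loci, 402 (3.3%) were higher in each fraction in normoxia and lower in each in hypoxia. Without centring the pattern held for CA9 and not for CA12, whose oligosome FPKM was 1.04 times as high with acidosis in hypoxia.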

How the results depend on the processing

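The mRNA calls with hypoxia (CA9, CA12 and the SLC16A3 locus) and the absence of mRNA calls with acidosis held under each alternative that compared these loci. With loci that name 1 gene, where the SLC16A3 locus is not compared, 2 members were called. Of 770 changes of single members recomputed, 702 stayed on their side of the fold, 48 were no longer past it, 13 became so, 3 passed it with the other sign and 4 that had been past it reversed, and 57 had the other sign in all. The number called higher in TE with hypoxia was 0 under the RNA scaling of the authors, with polysome over oligosome and with polysome over the other fractions together, and under that scaling 1 was called lower. The number called lower in TE with acidosis was 0 with a mean of at least 5 FPKM, where CA13 is not compared, and with either other TE ratio. For hypoxia with acidosis against normoxia, 1 was called higher in TE with a pseudocount of 0.1, the RNA scaling of the authors or either other TE ratio, and 3 with a mean of at least 5 FPKM, where the SLC16A3 locus (0.63) passed too. The number lower was 0 with a mean of at least 5 FPKM, and 2 under that scaling and with polysome over oligosome. In mRNA the number lower was 0 with no filter, no centring, median-of-ratios size factors, unweighted fractions, and without the monosome or the polysome fraction, and without the polysome fraction 5 were higher. Reversed were SLC4A2 TE with hypoxia at pH 6.0 under the RNA scaling (-0.068) and, with polysome over oligosome, the SLC16A3 locus in the same pair (-0.18), SLC16A1 with acidosis in hypoxia (0.098) and CA12 in hypoxia with acidosis against normoxia (-0.078). With no filter the median locus has no change, so values equal those without centring. Over all loci, the RNA scaling called 430 lower in mRNA with hypoxia, against 111 as reported, and 3306 lower and 446 higher in TE, against 1230 and 1070. A pseudocount of 0.1 called 396 higher and 241 lower in mRNA with hypoxia, against 263 and 111. The causes were not tested. No paired analysis was possible because the labels give no replicate numbers and each group has 1 library, and no library could be left out of a group. Depth limits what can be read for CA2.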
